A study of Mus musculus with 2 samples.

Results

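Perineuronal net genes and markers of giant reticular neurons were followed in sorted nuclei of descending hindbrain neurons. The 10 genes, of 23912 in the deposited tables, were the lecticans Acan, Bcan, Ncan and Vcan, the link proteins Hapln1 and Hapln4, the tenascin Tnr, and the giant-neuron markers Plce1, P2rx6 and Cgnl1. They had been chosen with results of these libraries already known. Nuclei with 2 or more UMIs (unique molecular identifiers, the counted transcripts) of Acan and 2 or more of Plce1, called double-positive here, numbered 9 of 269 neuronal nuclei in the SNI with brush library and 6 of 422 in the hot water bath library. These nuclei were chosen by their measured Acan and Plce1 counts, so the levels of both genes there are a description.

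A perineuronal net is a lattice of extracellular matrix around the soma and proximal dendrites of certain neurons. Hyaluronan chains at the cell surface carry lecticans, which are chondroitin sulfate proteoglycans, link proteins fasten the lecticans to hyaluronan, and tenascin-R cross-links the lecticans. In the brainstem, nets surround many large, fast-firing neurons, and aggrecan, the product of Acan, is the lectican most often used to mark them.

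The mice were of the TRAP2 line, aged 8 to 12 weeks, in which the Fos locus drives an inducible recombinase that marks neurons active in a chosen time window. A retrograde virus for a nuclear green fluorescent protein (AAV-retro-H2B-GFP) had been placed in the lumbar spinal cord in both groups, and sorted nuclei were sequenced with the 10x 3' kit, version 3. The groups were SNI with brush and hot water bath, named as in the labels, and hindbrains of a treatment were pooled, so each treatment is 1 library. How many animals a pool held is not stated in the labels. The marking selects neurons by Fos activity and by virus uptake in the cord, and the libraries hold nuclear RNA. Ratios below compare these libraries and not the treatments at large. Nuclei are not replicates, no p-value was computed, and every interval other than those of median depth is an exact 95% interval that covers counting error only. Pooled animals, dissection and library cannot be told apart from treatment.

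There were 288 nuclei with 11298755 UMIs for SNI with brush and 425 nuclei with 16344606 UMIs for hot water bath, with medians of 32852.5 UMIs per SNI with brush nucleus and 36962 UMIs per hot water bath nucleus. No barcode occurred in both. Mitochondrial genes took 0.514% of UMIs in the SNI with brush library and 0.148% in the hot water bath library. A cluster of 17 SNI with brush nuclei was rich in liver genes, against neuron-labelled samples, and was left out with called doublets. The 8 neuron markers were all detected in the neuronal nuclei of both libraries. With hot water bath as the base, 25.4% of 12974 genes had a level up by 1.5-fold or more for SNI with brush and 5.99% a level down by as much, and the median log2 ratio was 0.19. The excess fell on short genes. When genes were cut into 5 groups by length, the shortest had a median of 0.72 and the longest of -0.10.

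The start regions of the selecting pair and of both other giant-neuron markers are shown because these genes stand for the nuclei described below, and their sequences differ widely in base composition. Each is the RefSeq window of 250 bases before to 50 bases after the annotated start on GRCm38.p6, 5′ to 3′ on the gene's strand, and capitals mark the GC box, GGGCGG or its reverse complement CCGCCC, including overlapping copies. The windows are chr7:79052976-79053275 on the plus strand for Acan, chr19:38523947-38524246 on the plus strand for Plce1, chr16:17561635-17561934 on the plus strand for P2rx6 and chr9:71771553-71771852 on the minus strand for Cgnl1.
Acan: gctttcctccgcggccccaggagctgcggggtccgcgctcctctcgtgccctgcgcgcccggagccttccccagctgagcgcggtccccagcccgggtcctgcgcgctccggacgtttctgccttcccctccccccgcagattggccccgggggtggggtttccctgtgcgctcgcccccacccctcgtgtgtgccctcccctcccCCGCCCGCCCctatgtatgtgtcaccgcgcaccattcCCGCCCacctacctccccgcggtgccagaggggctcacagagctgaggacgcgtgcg
Plce1: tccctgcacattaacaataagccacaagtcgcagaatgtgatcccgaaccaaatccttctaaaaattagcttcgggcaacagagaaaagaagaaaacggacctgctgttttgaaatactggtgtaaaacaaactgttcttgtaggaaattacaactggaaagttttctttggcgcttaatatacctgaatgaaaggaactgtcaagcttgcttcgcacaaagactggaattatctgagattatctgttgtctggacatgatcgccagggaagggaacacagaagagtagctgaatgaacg
P2rx6: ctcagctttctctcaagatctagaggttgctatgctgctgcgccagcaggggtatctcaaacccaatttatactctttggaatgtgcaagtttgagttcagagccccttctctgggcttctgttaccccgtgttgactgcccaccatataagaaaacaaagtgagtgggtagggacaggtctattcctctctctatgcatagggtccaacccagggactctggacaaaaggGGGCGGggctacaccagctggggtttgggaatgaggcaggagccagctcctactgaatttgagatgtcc
Cgnl1: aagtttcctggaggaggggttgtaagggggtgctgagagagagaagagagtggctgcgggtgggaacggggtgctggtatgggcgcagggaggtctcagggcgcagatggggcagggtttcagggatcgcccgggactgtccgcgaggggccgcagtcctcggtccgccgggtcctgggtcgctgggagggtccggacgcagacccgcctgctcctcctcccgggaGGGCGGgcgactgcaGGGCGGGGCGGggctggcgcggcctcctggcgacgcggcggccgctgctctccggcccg

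G and C made up 74.0% of the Acan window and 73.3% of the Cgnl1 window, against 41.0% for Plce1 and 51.3% for P2rx6, with a median of 52.7% over 32851 promoters in the table. The Acan window had 31 CpG dinucleotides, the Cgnl1 window 30, the Plce1 window 8 and the P2rx6 window 3, where the median was 7. The GC box occurred 3 times in the Acan and Cgnl1 windows and once in that of P2rx6, and 35.7% of all promoters hold it on either strand. TATAAA, the core of the TATA box, occurred in the P2rx6 window on the strand opposite to the gene, as TTTATA in the printed run, and in 13.6% of all promoters on either strand. AAGGTCA, the core motif of estrogen-related receptors such as Esrrg, occurred on neither strand of these windows and in 4.72% of all promoters. Matches of different motifs did not overlap. A match describes the letters and is not a bound site. The Plce1 window lies inside the longer Plce1 gene of the GENCODE annotation, so it belongs to an internal start. Of the 10 genes, 9 had an entry in the promoter table, and Hapln4 did not.

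For SNI with brush, 7 of the 10 genes were up by 1.5-fold or more and 0 were down by as much, beside the 25.4% and 5.99% of all genes given above. Aggrecan, the link proteins, brevican and all 3 giant-neuron markers made up the higher ones, whereas neurocan, versican and tenascin-R lay within 1.5-fold. By length, Hapln4 is in the shortest group, where 57.6% of genes passed the same fold. Bcan and P2rx6 are in the second group, where 32.0% did, and Ncan in the third, where 17.6% did. Acan, Vcan and Hapln1 are in the fourth group, where 9.84% did, and Tnr, Plce1 and Cgnl1 in the longest, where 9.95% did.

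Acan (ENSMUSG00000030607, chr7:79053483-79115099 in mm10, plus strand) encodes aggrecan. The gene had 84 UMIs, or 7.84 counts per 1000000 UMIs (CPM; 6.25 to 9.70), in the SNI with brush library, against 49 UMIs, or 3.03 CPM (2.24 to 4.01), in the hot water bath library. The log2 ratio was 1.36 (0.84 to 1.91), and at least 1 UMI was found in 49 of 269 SNI with brush nuclei (18.2%) and 30 of 422 hot water bath nuclei (7.11%). Thinned to 9000 UMIs per nucleus, 5.03% of SNI with brush and 2.06% of hot water bath nuclei would be expected to show it. Acan was rare, and most nuclei had no UMI of it. As a measure of free RNA, it was seen in 3 of the 17 liver-gene nuclei (17.6%; 7.77% expected when thinned), at 6.07 CPM (1.25 to 17.8) and a median depth of 22273 UMIs, and in 0 of 26 hot water bath serotonergic nuclei. The liver-gene nuclei held neuron markers too, at 1067 CPM against 3828 CPM in neuronal nuclei. This background rests on 3 UMIs, so it cannot decide whether the SNI with brush share of nuclei with an Acan UMI lies above it. The level of 7.84 CPM lies inside the wide interval of the liver-gene nuclei. Detection of Acan in single nuclei, alone or with Plce1, is given below as a description.

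Bcan (ENSMUSG00000004892, chr3:87987531-88000230, minus strand) encodes brevican, a lectican made by neurons and glia. Its level was 106 CPM (100.3 to 112.8) in the SNI with brush library and 25.6 CPM (23.2 to 28.2) in the hot water bath library, a log2 ratio of 2.05 (1.89 to 2.22). It was seen in 78.4% of SNI with brush nuclei and 46.7% of hot water bath nuclei, and stood at 6.07 CPM in the liver-gene nuclei. Over nuclei, its level had Pearson r of -0.14 with the summed astrocyte markers and -0.04 with those of oligodendrocyte precursors in the SNI with brush library, and 0.03 and -0.02 in the hot water bath library, so weak that no relation is read from them.

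Ncan (ENSMUSG00000002341, chr8:70093085-70120873, minus strand), the gene of neurocan, had 12.8 CPM in the SNI with brush library and 12.6 CPM in the hot water bath library, a log2 ratio of 0.03 (-0.30 to 0.34). Vcan (ENSMUSG00000021614, chr13:89655312-89742509, minus strand), the gene of versican, had 13.4 CPM for SNI with brush and 10.5 CPM for hot water bath, with a ratio of 0.35 (0.02 to 0.68). Vcan was concentrated in few nuclei, and a single nucleus held 11.1% of its SNI with brush UMIs. Its Pearson r with the summed oligodendrocyte precursor markers was 0.18 over SNI with brush nuclei and -0.01 over hot water bath nuclei. For Tnr these values were 0.11 for SNI with brush and -0.14 for hot water bath. Whether glial RNA has a part in these levels was not tested.

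Hapln1 (ENSMUSG00000021613, chr13:89539796-89611652, plus strand) encodes the link protein that ties lecticans to hyaluronan. It had 21.9 CPM (19.2 to 24.9) in the SNI with brush library and 3.40 CPM (2.56 to 4.43) in the hot water bath library, and its log2 ratio of 2.68 (2.26 to 3.14) was the largest of the 10 genes. Hapln4 (ENSMUSG00000007594, chr8:70083457-70090862, plus strand), a brain link protein that works with brevican at synapses of brainstem neurons, had 30.1 CPM for SNI with brush and 6.87 CPM for hot water bath, a ratio of 2.13 (1.82 to 2.46). Tnr (ENSMUSG00000015829, chr1:159523769-159931729, plus strand), the gene of tenascin-R, was the exception among the net genes. Its level was 278 CPM (268 to 288) in the SNI with brush library and 349 CPM (340 to 358) in the hot water bath library, a ratio of -0.33 (-0.39 to -0.26).

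Plce1 (ENSMUSG00000024998, chr19:38481109-38785030, plus strand) encodes phospholipase C epsilon, a phospholipase regulated by small GTPases such as Ras. It had 293 UMIs, or 27.3 CPM (24.3 to 30.6), in 70 SNI with brush nuclei, against 80 UMIs, or 4.95 CPM (3.93 to 6.16), in 39 hot water bath nuclei, a log2 ratio of 2.46 (2.10 to 2.84). A single SNI with brush nucleus had 44 of these UMIs, or 15.02%. P2rx6 (ENSMUSG00000022758, chr16:17561885-17577800, plus strand), the gene of an ATP-gated P2X receptor subunit, had 14.3 CPM for SNI with brush and 2.66 CPM for hot water bath, a ratio of 2.41 (1.93 to 2.95). Cgnl1 (ENSMUSG00000032232, chr9:71626509-71771602, minus strand), which encodes the junction protein paracingulin, had 39.7 CPM for SNI with brush and 11.4 CPM for hot water bath, a ratio of 1.80 (1.55 to 2.06).

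Genes on the opposite strand overlap Vcan, Hapln1, Tnr, Plce1 and P2rx6, and small genes on the same strand lie within Ncan and Tnr. Whether reads were assigned by strand is not stated in the labels, so reads of overlapping genes may be shared. Scaling by median-of-ratios size factors shifts every ratio between the libraries by -0.19, which turns the sign of Ncan only.

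**Figure D1:**
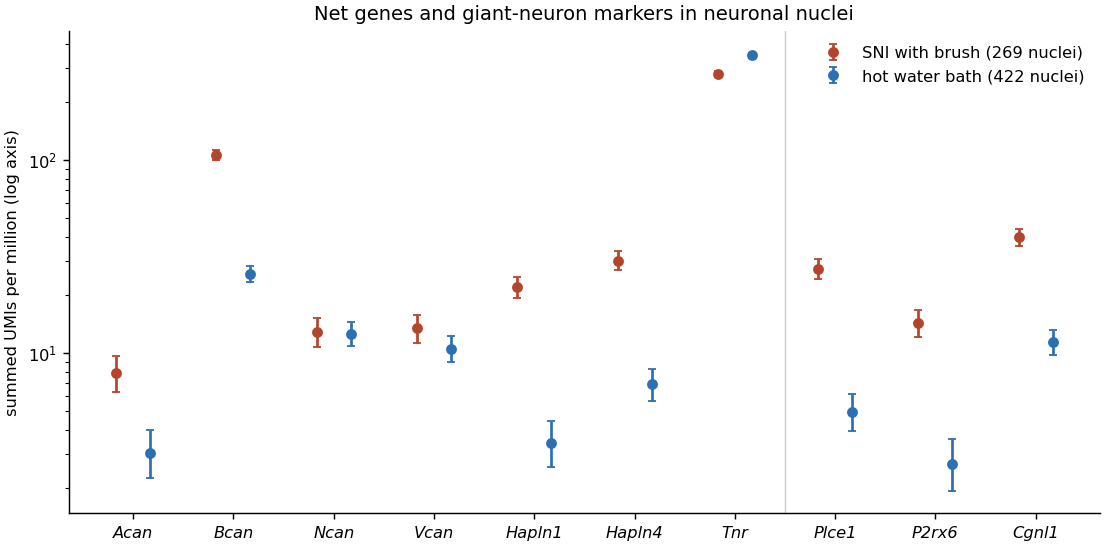
Level in CPM (summed UMIs scaled to 1000000, log axis) of the 10 genes in neuronal nuclei of the SNI with brush library (red, left) and the hot water bath library (blue, right), with exact 95% Poisson intervals for counting error. Bcan, Hapln1, Hapln4, Plce1, P2rx6, Cgnl1 and Acan lie higher in red, Ncan and Vcan are close, and Tnr is lower.

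Nuclei were also sorted by their own transmitter UMIs. The SNI with brush library had 122 glutamatergic, 78 glycinergic, 25 GABAergic and 3 serotonergic nuclei, and the hot water bath library 251 glutamatergic, 20 glycinergic, 40 GABAergic and 26 serotonergic nuclei. A further 41 SNI with brush and 85 hot water bath nuclei were mixed or had too few transmitter UMIs. The makeup of the libraries thus differed, and the class of glycinergic neurons, which carry the glycine transporter gene Slc6a5, was larger in the SNI with brush library.

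Within glutamatergic nuclei, Acan had 8.18 CPM (5.99 to 10.9) in the SNI with brush library and 2.48 CPM (1.61 to 3.66) in the hot water bath library, a log2 ratio of 1.71 (0.99 to 2.49). In glycinergic nuclei it had 9.01 CPM (5.94 to 13.1) for SNI with brush and 12.0 CPM (5.48 to 22.7) for hot water bath, a ratio of -0.46 (-1.54 to 0.86). The hot water bath value rests on 9 UMIs, of which 4 came from 1 nucleus.

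Plce1 showed the same arrangement. Its level in glutamatergic nuclei was 29.3 CPM in the SNI with brush library and 4.26 CPM in the hot water bath library, a ratio of 2.77 (2.29 to 3.30), and in glycinergic nuclei 30.03 CPM for SNI with brush and 30.6 CPM for hot water bath, a ratio of -0.05 (-0.70 to 0.70). For Cgnl1 the glutamatergic values were 38.7 CPM for SNI with brush and 11.1 CPM for hot water bath, a ratio of 1.80 (1.47 to 2.14). Its glycinergic values were 52.4 CPM for SNI with brush and 62.5 CPM for hot water bath, a ratio of -0.27 (-0.73 to 0.25). In hot water bath glycinergic nuclei, 1 nucleus held 36.2% of the Cgnl1 UMIs and 1 held 26.1% of the Plce1 UMIs. A single SNI with brush glutamatergic nucleus held 26.7% of the Plce1 UMIs of its class. The intervals do not cover such differences between nuclei. The glycinergic intervals of Acan, Plce1 and Cgnl1 hold equality and also a difference of over 1.5-fold.

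The link proteins and brevican had positive ratios in both classes. In glutamatergic nuclei the ratio was 2.66 for Hapln1, 2.14 for Hapln4 and 1.86 for Bcan. Hapln1 was higher in SNI with brush glycinergic nuclei too, at 26.7 CPM against 12.0 CPM for hot water bath (1.09, 0.16 to 2.34). So were Hapln4 at 34.7 against 12.0 CPM for hot water bath (1.46, 0.56 to 2.70) and Bcan at 126.8 against 37.2 CPM for hot water bath (1.74, 1.21 to 2.38). The hot water bath values of Hapln1 and Hapln4 rest on 9 UMIs each, and 1 nucleus held 5 of those of Hapln1. For Tnr the ratio was negative in glutamatergic (-0.41), glycinergic (-0.35) and GABAergic (-0.48) nuclei. In serotonergic nuclei it was 2.19 (1.05 to 3.23), on 13 UMIs in 3 SNI with brush nuclei and 21 UMIs in 26 hot water bath nuclei. P2rx6 had a ratio of 2.43 (1.81 to 3.12) in glutamatergic nuclei and 1.05 (-0.07 to 2.66) in glycinergic nuclei.

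Set against glutamatergic nuclei of the same library, glycinergic nuclei of the hot water bath library were at least 1.5-fold higher for 7 of the 10 genes, where 17.7% of all genes were. The log2 ratio was 2.86 (2.05 to 3.61) for Plce1, 2.50 (1.97 to 2.997) for Cgnl1, 2.32 (0.99 to 3.42) for Acan and 1.65 (0.37 to 2.66) for Hapln1. Those of Acan and Hapln1 rest on 9 glycinergic UMIs each, of which 1 nucleus held 44.4% for Acan and 55.6% for Hapln1. In the SNI with brush library 0 of the 10 genes passed, where 5.81% of all genes did, and Cgnl1 had the highest ratio at 0.44 (0.13 to 0.74). The difference between the libraries in this contrast was not tested.

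The order of classes in the SNI with brush library was GABAergic (11.2 CPM), glycinergic (9.01), glutamatergic (8.18) and mixed (3.03) for Acan, and the intervals of neighbours overlapped. For Plce1 it was glycinergic (30.03 CPM), glutamatergic (29.3), mixed (21.2) and GABAergic (15.9), again with overlapping neighbours. In the hot water bath library, glycinergic nuclei stood clear of every other class for Plce1 and Cgnl1. Serotonergic nuclei had 0 UMIs of Acan, Hapln1 and Plce1 in both libraries, which allows up to 2.74 CPM in the 26 hot water bath nuclei and up to 19.8 CPM in the 3 SNI with brush nuclei. Tnr stood at 86.0 CPM (45.8 to 147) in SNI with brush serotonergic nuclei and at 19.2 CPM (11.9 to 29.3) in hot water bath serotonergic nuclei, the second against 405 CPM in glutamatergic nuclei of that library.

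**Figure D2:**
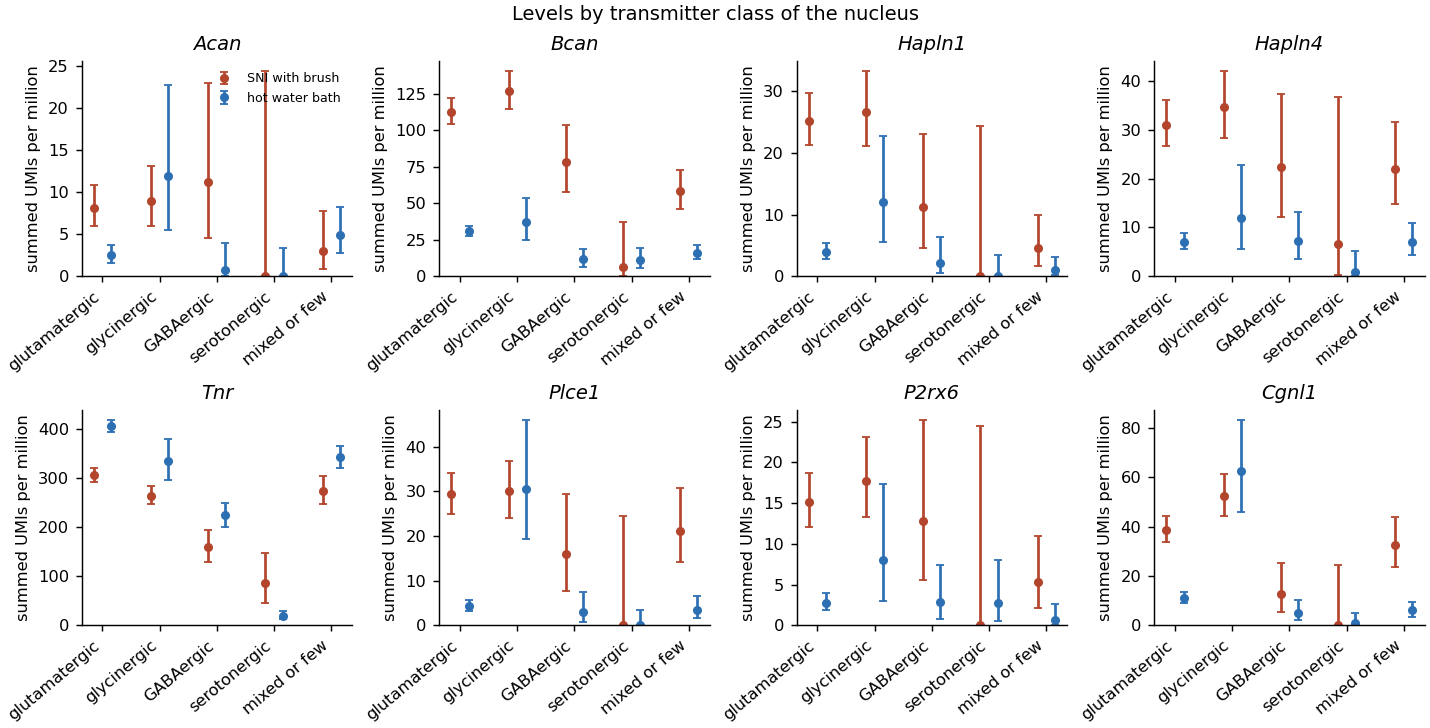
Levels in CPM of 8 genes by transmitter class, SNI with brush (red, left) and hot water bath (blue, right), with exact 95% Poisson intervals. Acan, Plce1 and Cgnl1 overlap between the libraries in glycinergic nuclei and are apart in glutamatergic nuclei, and serotonergic nuclei have at most 3 UMIs per library of all but Bcan and Tnr.

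The 9 double-positive nuclei were 3.35% (1.54 to 6.26) of SNI with brush nuclei, and the 6 were 1.42% (0.52 to 3.07) of hot water bath nuclei. Just outside the rule, with a lower count of exactly 1 among Acan and Plce1, lay 16 SNI with brush and 4 hot water bath nuclei, and just inside, with exactly 2, lay 5 SNI with brush and 5 hot water bath nuclei. Most members of the rule thus sit at its edge, and 0 of the 17 liver-gene nuclei met it. In order of total UMIs, the SNI with brush nuclei had 2, 2, 2, 2, 2, 4, 4, 6 and 5 UMIs of Acan and 2, 6, 17, 3, 2, 4, 4, 3 and 17 of Plce1. The hot water bath nuclei had 4, 3, 2, 3, 2 and 3 of Acan and 6, 2, 2, 2, 3 and 2 of Plce1.

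Double-positive nuclei had higher median depth than other nuclei, with wide intervals. Their total UMIs ran from 19630 to 109730 with a median of 62305 in the SNI with brush library, against a median of 32802.5 in the other nuclei, which ran from 9164 to 142954. In the hot water bath library they ran from 41725 to 96057 with a median of 56908, against 36639 in the others, which ran from 10878 to 84895. The ratio of medians was 1.90 (0.96 to 3.19) for SNI with brush, an interval that holds 1, and 1.55 (1.14 to 2.62) for hot water bath. These intervals come from the order of the double-positive nuclei around their median, with the median of the others taken as fixed. Against other nuclei within the depth range of the double-positive ones, the ratio was 1.67 (0.84 to 2.81) for SNI with brush and 1.14 (0.84 to 1.93) for hot water bath. The groups overlapped in both libraries, although the 2 deepest hot water bath nuclei were both double-positive.

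A threshold in UMIs favours deep nuclei, so selection was repeated after thinning every nucleus to 9000 UMIs. With at least 1 UMI of each gene required after thinning, 3.18 SNI with brush and 1.18 hot water bath nuclei were expected, and the weighted medians of their original depth were 46683 UMIs for SNI with brush and 44976 UMIs for hot water bath, or 1.42 and 1.22 times those of the other nuclei of each library. The nuclei of the original rule carried 70.1% of the selection weight for SNI with brush and 80.5% for hot water bath, and the hot water bath median is the depth of 1 nucleus, so no interval is given and the part of depth was not tested. The product of the separate shares gives 1.68 SNI with brush and 0.30 hot water bath nuclei. Joint detection was thus 1.89 times the product for SNI with brush and 3.93 times for hot water bath, on few expected nuclei. Other pairs lay on either side. For SNI with brush, Plce1 with P2rx6 had 2.62 and Acan with Tnr 1.09. For hot water bath, Plce1 with Cgnl1 had 4.46 and Acan with Hapln4 1.66. The excess is therefore not particular to Acan and Plce1.

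Levels per UMI can be followed over depth without any threshold. With nuclei ranked by total UMIs and cut into 3 equal groups, Acan had 4.395, 5.68 and 9.78 CPM from the shallowest to the deepest group in the SNI with brush library, and 1.79, 1.91 and 4.36 CPM in the hot water bath library. The log2 ratio of deepest over shallowest was 1.07 (0.02 to 2.53) for SNI with brush and 1.19 (0.01 to 2.83) for hot water bath. Cgnl1 had 15.1, 27.05 and 52.3 CPM in the SNI with brush library and 6.27, 7.07 and 16.6 CPM in the hot water bath library, with ratios of 1.77 (1.20 to 2.46) for SNI with brush and 1.38 (0.73 to 2.15) for hot water bath. Plce1 had no such order, at 27.0, 19.4 and 31.3 CPM for SNI with brush and 5.07, 3.82 and 5.68 CPM for hot water bath. In the deepest group, 4 of the 10 genes stood 1.5-fold or more above the shallowest in the SNI with brush library and 5 in the hot water bath library, where 5.62% of all genes did for SNI with brush and 3.63% for hot water bath.

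**Figure D3:**
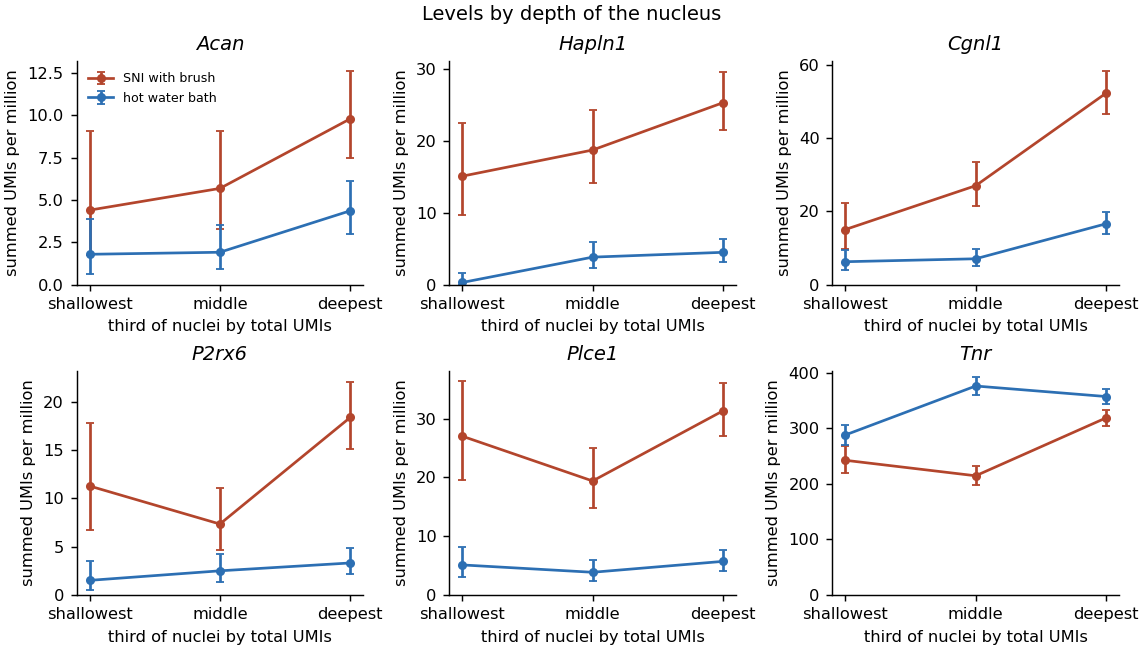
Levels in CPM of 6 genes in the shallowest, middle and deepest group of nuclei by total UMIs, SNI with brush (red) and hot water bath (blue), with exact 95% Poisson intervals. Acan and Cgnl1 are highest in the deepest group of both libraries, and Plce1 shows no order.

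Transmitter class and depth went together in the double-positive nuclei. In the SNI with brush library 5 were glycinergic, with 31440 to 63004 UMIs, and 3 were glutamatergic, with 75600, 104538 and 109730 UMIs. The last, with 19630 UMIs, was classed GABAergic on 4 transmitter UMIs in all. In the hot water bath library 2 were glycinergic, with 41725 and 48092 UMIs, 3 were glutamatergic, with 65724, 92959 and 96057 UMIs, and 1 with 44976 UMIs had 2 transmitter UMIs, too few for a class. In both libraries, every glutamatergic double-positive nucleus was deeper than every glycinergic one.

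Against other nuclei of their own class, the median ratio of total UMIs was 2.90 for the glutamatergic and 1.75 for the glycinergic double-positive nuclei of the SNI with brush library, and 2.40 for the glutamatergic and 1.30 for the glycinergic ones of the hot water bath library. Glutamatergic nuclei had medians of 36048 UMIs in the SNI with brush and 38785.5 in the hot water bath library among the others.

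Slc17a6, the vesicular glutamate transporter gene of most brainstem excitatory neurons, had 21, 12 and 15 UMIs in the 3 glutamatergic nuclei of the SNI with brush library and 13, 17 and 10 in those of the hot water bath library. The 7 glycinergic nuclei had 0 UMIs of it. Slc6a5 had 10, 19, 8, 37 and 19 UMIs in the glycinergic SNI with brush nuclei and 13 and 7 in the hot water bath ones. The 6 glutamatergic nuclei had at most 4 Slc6a5 UMIs each. The classes were set by these genes, so this separation follows from the sorting and is a description.

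Summed over nuclei, glutamate transporter genes gave 24.6% (18.8 to 31.2) of the transmitter UMIs of double-positive nuclei and 36.5% of those of other nuclei in the SNI with brush library. In the hot water bath library the shares were 53.8% (42.2 to 65.0) in double-positive and 52.6% in other nuclei. With nuclei selected after thinning to 9000 UMIs the shares were 24.6% in both libraries, against 36.1% in other SNI with brush and 52.8% in other hot water bath nuclei. The thinned hot water bath share rests on 1.18 expected nuclei, with 62.9% of the selection weight in glycinergic ones. A mean over the hot water bath double-positive nuclei, without thinning, gave 65.0%, so no shared direction is read from these shares.

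Summed Slc6a5 was higher in double-positive nuclei of both libraries, at 173.5 CPM against 75.3 CPM in other SNI with brush nuclei (log2 ratio 1.21, 0.89 to 1.51) and 53.9 against 10.3 CPM in hot water bath nuclei (2.41, 1.65 to 3.04). The glycinergic hot water bath nuclei held 13 and 7 of the 21 UMIs there, and 1 SNI with brush nucleus held 37 of 98. Gad2, a GABA-synthesizing enzyme gene, was lower, at 21.2 against 83.7 CPM in SNI with brush nuclei (-1.92, -2.94 to -1.17) and 7.70 against 74.7 CPM in hot water bath nuclei (-3.06, -5.56 to -1.73). For Gad1 the ratio was -3.27 (-6.64 to -1.72) in the SNI with brush library and 0.05 (-1.37 to 1.02) in the hot water bath library, where 1 glycinergic nucleus held 6 of 7 UMIs. Slc17a7, the acetylcholine gene Chat and the serotonin gene Tph2 had 0 UMIs in the double-positive nuclei of both libraries, which allows up to 5.31 CPM in the SNI with brush and 7.70 CPM in the hot water bath nuclei. Tph2 stood at 30.5 CPM in the other SNI with brush nuclei and 118 CPM in the other hot water bath nuclei.

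**Figure D4:**
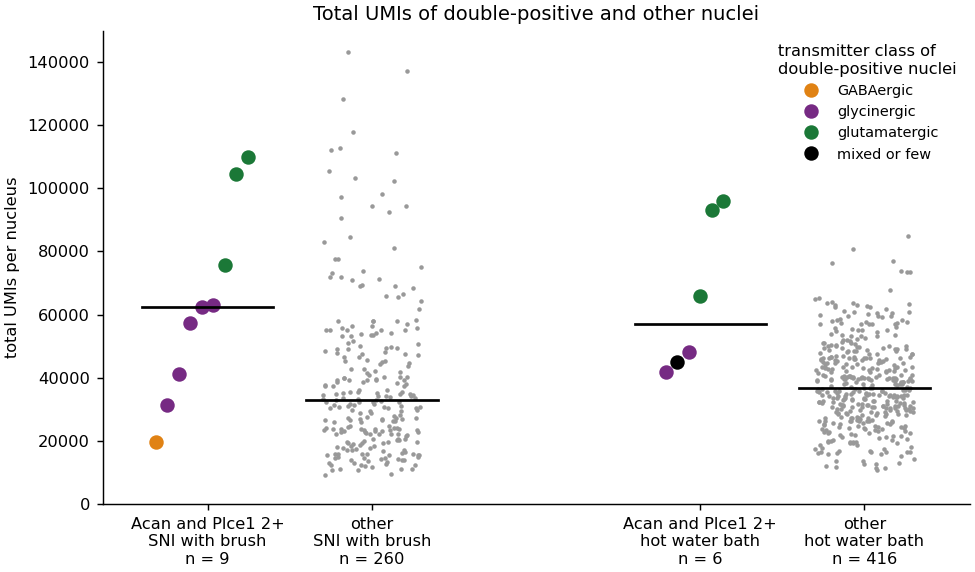
Total UMIs of each double-positive nucleus (large points, coloured by transmitter class) and of each other neuronal nucleus (grey) in the SNI with brush and hot water bath libraries, with bars at the medians. Glutamatergic double-positive nuclei, from 65724 to 109730 UMIs, lie above the glycinergic ones, from 31440 to 63004.

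P2rx6 and Cgnl1, which the selection did not use, were both detected in 8 of 9 double-positive nuclei (88.9%, 51.8 to 99.7) against 40 of 260 others (15.4%) in the SNI with brush library. In the hot water bath library it was 2 of 6 (33.3%, 4.33 to 77.7) against 14 of 416 (3.37%). Depth favours joint detection, and thinned to 9000 UMIs the expected shares were 22.0% in double-positive against 2.93% in other SNI with brush nuclei and 3.59% against 0.394% in hot water bath nuclei. These nuclei were chosen at full depth, so thinning at this step does not remove the depth of the choice. P2rx6 and Cgnl1 were also listed as members with earlier results of these data known.

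The pair was seen more often in nuclei with Acan or Plce1 alone than in those with neither, but the former were also deeper. Among SNI with brush nuclei with 2 or more Acan UMIs but fewer than 2 of Plce1, 5 of 8 had both genes, and among those with Plce1 but not Acan 9 of 33 (27.3%, 13.3 to 45.5). Where neither reached 2 UMIs the share was 11.9% of 219. In the hot water bath library the counts were 1 of 6 (16.7%, 0.42 to 64.1), 4 of 15 (26.7%, 7.79 to 55.1) and 2.28% of 395. In the same order, median total UMIs were 65368, 45025 and 31589 for SNI with brush and 46981.5, 44500 and 36224 for hot water bath. The part of depth in these shares was not tested.

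P2rx6 had 3, 2, 1, 7, 3, 3, 2, 10 and 2 UMIs in the SNI with brush double-positive nuclei, in order of depth, and 1, 0, 0, 0, 0 and 1 in the hot water bath ones. Every SNI with brush nucleus had at least 1 UMI, and 4 of 6 hot water bath nuclei had none. Its log2 ratio to other nuclei was 2.32 (1.70 to 2.87) in the SNI with brush library and 1.29 (-2.11 to 2.93) in the hot water bath library, the second on 2 UMIs.

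Cgnl1 had 0, 2, 4, 6, 6, 12, 2, 16 and 14 UMIs in the SNI with brush nuclei and 9, 0, 2, 2, 6 and 3 in the hot water bath nuclei. Its level was 109.8 CPM against 35.8 CPM in other SNI with brush nuclei (1.62, 1.20 to 2.01) and 56.5 against 10.3 CPM in hot water bath nuclei (2.49, 1.75 to 3.11). Cgnl1 was absent from 1 double-positive nucleus of each library, the one of 19630 UMIs and the one of 44976 UMIs, both also without Hapln1 or Hapln4.

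Of the 8 genes that did not choose the nuclei, 4 were at least 2-fold higher in double-positive nuclei in the SNI with brush library and 6 in the hot water bath library, where 4.79% of 12972 genes were for SNI with brush and 6.2% for hot water bath. At least 2-fold lower were 1 for SNI with brush and 0 for hot water bath, where 12.6% and 14.1% of all genes were in these libraries. The members were listed with earlier results of these data known, so these counts are a description. The ratios have 0.5 UMI added to both sides, which matters at counts this low. On plain CPM 4 of the 8 genes passed in the SNI with brush library, where 4.03% of all genes did, and 3 in the hot water bath library, where 4.72% did. Hapln1 and Cgnl1 passed in both libraries either way, where 1.36% of all genes did with the added UMI and 0.94% without it. Hapln4, P2rx6 and Vcan passed in the hot water bath library only with the added UMI, on 5, 2 and 8 UMIs. Hapln1 stood at 67.3 CPM against 19.4 CPM in other SNI with brush nuclei (1.81, 1.25 to 2.30) and at 15.4 against 3.11 CPM in hot water bath nuclei (2.41, 0.80 to 3.53), although 5 of the 6 hot water bath UMIs came from 1 nucleus. Hapln4 stood at 69.0 against 28.0 CPM in other SNI with brush nuclei (1.32, 0.78 to 1.79) and at 12.8 against 6.72 CPM in hot water bath nuclei (1.06, -0.72 to 2.20).

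The other lecticans differed. Bcan was found in all 15 double-positive nuclei, at 152 against 104 CPM in the SNI with brush library (0.56, 0.22 to 0.87) and 77.0 against 24.3 CPM in the hot water bath library (1.68, 1.07 to 2.20). Ncan had ratios of -0.17 (-1.75 to 0.88) for SNI with brush and -0.13 (-2.19 to 1.08) for hot water bath. Vcan had 2 UMIs in the 9 SNI with brush nuclei (-1.66, -5.04 to -0.10) and 8 in the 6 hot water bath nuclei (1.08, -0.24 to 2.01), of which 5 were in 1 nucleus. Tnr showed 281 against 278 CPM in SNI with brush nuclei (0.02, -0.22 to 0.25) and 331 against 349 CPM in hot water bath nuclei (-0.07, -0.34 to 0.17), so a 1.5-fold difference lies outside both intervals under this rule. With a minimum of 1 UMI the SNI with brush ratio was -0.55 (-0.73 to -0.39), and with selection after thinning to 9000 UMIs it was -0.44, so this result depends on how the nuclei are chosen.

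**Figure D5:**
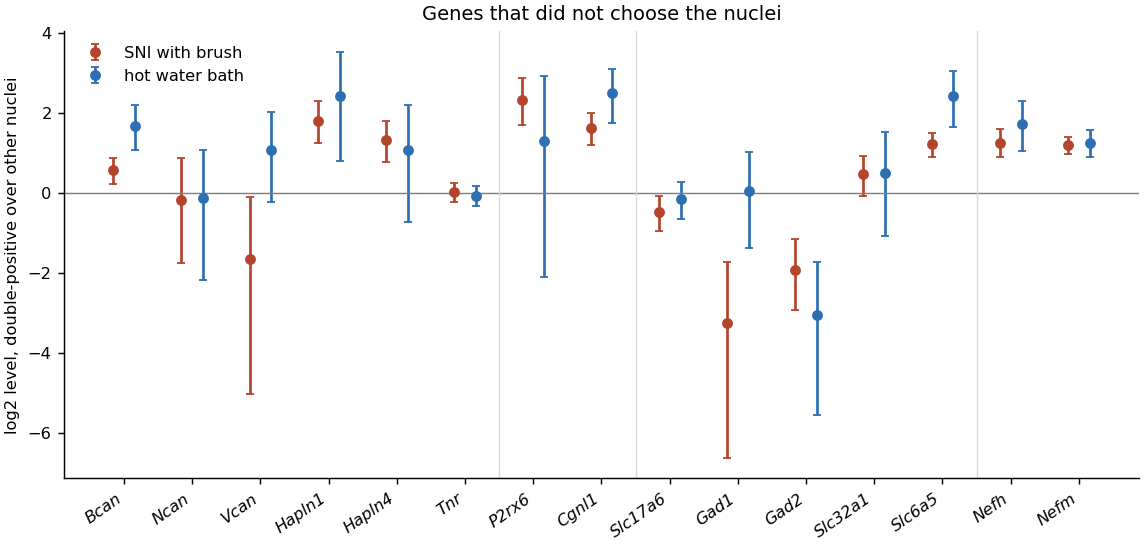
Log2 ratio of the summed level in double-positive over other nuclei of the same library, SNI with brush (red, left) and hot water bath (blue, right), with exact 95% intervals, for net genes, giant-neuron markers, transmitter genes and neurofilaments. Hapln1, Cgnl1, Slc6a5, Nefh and Nefm lie above 0 in both libraries, Gad2 lies below 0, and Tnr is at 0.

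Some genes of large and fast-firing neurons were higher in the selected nuclei. Cell size was not measured, so the name giant neuron was not checked beyond these genes and total UMIs. Of 15 such genes, 4 were at least 2-fold higher in SNI with brush double-positive nuclei and 7 in hot water bath ones, with 0 lower in either, beside the 4.79% and 6.2% above. The list median was 0.69 for SNI with brush, against -0.03 over all genes, and 0.87 for hot water bath, against -0.04. Nefh, the heavy neurofilament gene, had 143 against 60.4 CPM in SNI with brush nuclei (1.26, 0.90 to 1.58) and 61.6 against 18.9 CPM in hot water bath nuclei (1.73, 1.04 to 2.31). Nefm, the medium neurofilament, had 388 against 170 CPM in SNI with brush nuclei (1.19) and 210.5 against 88.8 CPM in hot water bath nuclei (1.25). The potassium channel Kcna1 had ratios of 1.28 for SNI with brush and 1.74 for hot water bath. For the sodium channel subunit Scn4b they were 1.13 (0.60 to 1.59) for SNI with brush and 1.31 (-0.47 to 2.46) for hot water bath. Spp1, the osteopontin gene, had 0.99 (0.51 to 1.42) for SNI with brush and 1.24 (0.01 to 2.13) for hot water bath. A single nucleus held 22 of its 46 SNI with brush UMIs and another 6 of its 9 hot water bath UMIs. No shared difference is read from Spp1. Pvalb, the calcium buffer parvalbumin, had -0.05 (-0.61 to 0.43) for SNI with brush and 1.36 (0.03 to 2.29) for hot water bath.

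Enzymes that build chondroitin sulfate were mixed. Of 17 tested, 1 was at least 2-fold higher and 3 lower in SNI with brush double-positive nuclei, and 2 were higher and 2 lower in hot water bath ones. Among all genes, 4.79% were higher and 12.6% lower for SNI with brush, and 6.2% higher and 14.1% lower for hot water bath. Csgalnact1, which starts chondroitin chains, was the gene higher in both, at 1.65 (1.30 to 1.97) for SNI with brush on 88 UMIs and 2.06 (1.67 to 2.41) for hot water bath on 69 UMIs. Dsel, a dermatan sulfate epimerase gene, was lower in both, at -1.47 (-3.98 to -0.12) for SNI with brush and -2.02 (-4.07 to -0.83) for hot water bath. Xylt1, which adds the first sugar to the core protein, had -1.25 (-1.84 to -0.77) for SNI with brush and -0.43 (-0.83 to -0.08) for hot water bath.

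Other partners of the net showed few shared differences. Of 13 tested, 0 were at least 2-fold higher and 4 lower in the SNI with brush library, and 1 was higher and 3 lower in the hot water bath library. Sema3a, a guidance cue that binds nets, went opposite ways, at -1.06 (-1.84 to -0.44) for SNI with brush on 19 UMIs and 1.67 (1.32 to 1.98) for hot water bath on 84 UMIs. Ptprz1, a receptor for chondroitin sulfate proteoglycans, had -0.77 (-1.42 to -0.23) for SNI with brush and -3.55 (-6.92 to -2.02) for hot water bath. Nptxr, the neuronal pentraxin receptor, had -1.15 for SNI with brush and -1.58 for hot water bath. Among 9 proteases and inhibitors, 2 were higher and 1 lower in the SNI with brush library, and 1 higher and 1 lower in the hot water bath library. The shares of all genes given for the chondroitin sulfate enzymes stand beside these counts and those of the net partners. Adamts9 was the gene higher in both, at 1.18 (-0.28 to 2.23) for SNI with brush and 2.19 (0.73 to 3.23) for hot water bath, on 7 UMIs each.

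Relatives of the giant-neuron markers included P2rx5, another P2X receptor gene, at 1.43 (0.17 to 2.38) for SNI with brush and 1.98 (0.18 to 3.16) for hot water bath. The phospholipase gene Plcd4 had 1.24 (0.56 to 1.82) for SNI with brush and 1.49 (0.40 to 2.31) for hot water bath. Of 10 tested, 2 were at least 2-fold higher and 2 lower for SNI with brush, and 3 higher and 1 lower for hot water bath. Among all genes, 4.79% were higher and 12.6% lower for SNI with brush, and 6.2% higher and 14.1% lower for hot water bath. These shares also stand beside the counts of regional factors below. Plch1, a phospholipase C eta gene, was lower, at -2.15 (-4.20 to -0.95) for SNI with brush and -1.57 (-4.07 to -0.23) for hot water bath. Of 15 regional transcription factors, 1 was higher and 9 lower in the SNI with brush library and 1 higher and 3 lower in the hot water bath library, or 5 lower there on plain CPM. Lhx4, a homeobox factor gene, had 5 UMIs in SNI with brush double-positive nuclei, at 8.85 against 7.48 CPM in other nuclei (0.37, -1.42 to 1.53). In the hot water bath ones it had 12 UMIs, at 30.8 against 12.2 CPM (1.39, 0.35 to 2.17).

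Between the libraries, 11 of the 15 genes of large and fast neurons were up by 1.5-fold or more for SNI with brush and 0 down, with Pvalb at 2.84 (2.58 to 3.11), Scn4b at 2.57 and Vamp1, a vesicle protein of fast synapses, at 2.27. Net partners counted 5 higher and 0 lower of 13, among them Nptx1, a secreted pentraxin, at 2.04 (1.67 to 2.42). Chondroitin sulfate genes counted 2 higher and 3 lower of 17, with Chpf, a chain-polymerizing factor, at 1.75 (1.39 to 2.11) and Dsel at -1.48 (-1.72 to -1.24). Proteases and inhibitors counted 2 of 9 each way, and P2X and phospholipase relatives 3 higher and 0 lower of 10. The 25.4% and 5.99% of all genes stand beside these counts too.

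A ranking by the less extreme of the libraries took in only 531 of the 12972 genes. In each library these were seen in at least 50% of double-positive nuclei, with at most 25% of their UMIs there from 1 nucleus. The highest of the 531 were Impa2, Steap2, Ttc39b, Dnpep, Patj, Fdxr, Lrpprc, Tfg, Cabp1, Rnf157, Trpm2 and Ivd. Genes outside this ranking stood higher than Impa2 in both libraries, among them Csgalnact1, Kcna1 and Nefh, with the ratios given above. Ttc39b had 1.22 (0.89 to 1.52) for SNI with brush and 0.82 (0.34 to 1.24) for hot water bath. Impa2, an inositol monophosphatase gene, had 1.06 (0.30 to 1.68) for SNI with brush and 1.31 (0.44 to 1.99) for hot water bath. Patj, which organizes cell polarity, had 0.77 (0.48 to 1.03) for SNI with brush and 0.97 (0.56 to 1.32) for hot water bath. Hapln1 and Cgnl1 did not enter the ranking. A single nucleus of the hot water bath library held 83.3% of the double-positive UMIs of Hapln1 and 40.9% of those of Cgnl1, above the 25% allowed, and Hapln1 was also seen in fewer than 50% of those nuclei.

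Among the lowest, of 5717 ranked, were Fnbp1l, Pde1a, Celf3, Camk2a, Trpm3, Slc24a3 and Pgrmc1. Pde1a, a calcium-activated phosphodiesterase gene, had 1.77 against 125.9 CPM in SNI with brush nuclei and 30.8 against 265 CPM in hot water bath nuclei. Trpm3, a cation channel, stood at 92.1 against 445 CPM in SNI with brush nuclei (-2.26, -2.70 to -1.88) and 74.45 against 438 CPM in hot water bath nuclei (-2.53, -3.14 to -2.03). Camk2a, a calcium-dependent kinase of forebrain-type excitatory synapses, had -2.57 for SNI with brush and -3.47 for hot water bath.

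Over all neuronal nuclei, the 8 genes whose level per nucleus was most like that of Acan, by the lower of the Pearson r in the 2 libraries among 9190 genes, included Cgnl1, Kcna1, Ugt8a, Aff1, Syt2, Tnfrsf23 and Tbc1d4. Cgnl1 had r of 0.33 over 269 SNI with brush nuclei and 0.27 over 422 hot water bath nuclei, and Kcna1 had 0.37 for SNI with brush and 0.26 for hot water bath. For Plce1 they included Rgl1, Hapln4, Nefh, St3gal6, Col4a5, Syt2 and St6gal1, and Rgl1 had 0.22 for SNI with brush and 0.27 for hot water bath. These values are weak, nuclei of a library share depth and preparation, and the r of Acan with Plce1 itself was 0.16 for SNI with brush and 0.21 for hot water bath.

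In a joint clustering of all nuclei, 9 of 9 SNI with brush and 3 of 6 hot water bath double-positive nuclei fell in the same cluster, which held 50 of the 260 and 20 of the 416 other nuclei. Hapln1, Cgnl1 and Slc6a5 were among the genes that led it, so its makeup is no separate evidence on them. The other 3 hot water bath nuclei, all without P2rx6 or Hapln1, fell in a cluster that held hot water bath nuclei only.

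Summed markers of oligodendrocytes were lower in double-positive nuclei of both libraries. Summed oligodendrocyte markers, 8 of 8 detected, stood at 97.4 CPM against 236 CPM in other SNI with brush nuclei, with single nuclei between 32.1 and 318 CPM and between 0 and 4204 CPM. In hot water bath nuclei, 5 of 8 were detected at 41.1 against 100.3 CPM, and Mag, Mobp and St18 were at 0. Astrocyte markers stood at 23.0 against 58.1 CPM in SNI with brush nuclei and at 23.1 against 22.5 CPM in hot water bath nuclei, with Slc1a3 and Gfap at 0 in the double-positive nuclei of both libraries. Oligodendrocyte precursor markers stood at 5.31 against 16.05 CPM in SNI with brush nuclei and 5.13 against 8.69 CPM in hot water bath nuclei, with Cspg4 and Gpr17 at 0. The double-positive values are at or below the level that 3 UMIs give, so no difference is read from the precursor markers. Microglia markers stood at 228 against 309 CPM in SNI with brush nuclei and 126 against 120.5 CPM in hot water bath nuclei, with Csf1r and C1qb at 0 in the double-positive nuclei of both. Endothelial and mural markers stood at 7.08 against 8.47 CPM in SNI with brush nuclei and 7.70 against 4.12 CPM in hot water bath nuclei, with 1 of 5 detected in the double-positive nuclei of each. Choroid plexus markers stood at 262 against 246 CPM in SNI with brush nuclei and 28.2 against 36.1 CPM in hot water bath nuclei. Their part in the differences of Bcan and Vcan between libraries was not tested.

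Mitochondrial UMIs had a median share of 0.213% in double-positive and 0.276% in other SNI with brush nuclei, and of 0.0484% in double-positive and 0.0709% in other hot water bath nuclei. In nuclei with at most 0.5% mitochondrial UMIs, 8 double-positive SNI with brush nuclei remained.

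The liver-gene nuclei that were left out bear on Plce1 and Cgnl1 as background. They had 56.7 CPM of Plce1 and 123.5 CPM of Cgnl1, above the 27.3 and 39.7 CPM of SNI with brush neuronal nuclei. Liver markers in those neuronal nuclei stood at 0.224% of their level in the liver-gene nuclei. The same share of the Plce1 and Cgnl1 levels is 0.127 and 0.276 CPM, and that of the Acan level 0.0136 CPM. This scaling assumes that RNA of these genes spreads as that of the liver markers does, which was not tested. The liver-gene nuclei also held neuron markers, at 1067 CPM. Hapln1 had 0 UMIs in the liver-gene nuclei and Acan had 3.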

How the data were processed

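UMI counts per gene and nucleus were deposited by the authors as whole numbers in 1 table per library and taken as raw counts. The mm10 genome, Cell Ranger 5.0 and Seurat (no version given in the sources used here) are named per the submitters' processing notes. The barcode lists hold 850 SNI with brush and 723 hot water bath barcodes, of which 288 and 425 have columns, so nuclei were filtered before deposit by a rule the labels do not state.

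A minimum of 500 genes and a maximum of 5% mitochondrial UMIs took out no nucleus. Scrublet called 2 and 3 doublets, which were left out. Counts were scaled to 10000 per nucleus, log-transformed and clustered on 2000 variable genes, 30 components and 15 neighbours at resolution 1 (python 3.11.15 with igraph 0.11.9, scanpy 1.11.5, pandas 2.3.3, anndata 0.12.19, scikit-learn 1.9.0, numpy 2.4.6, matplotlib 3.10.9 and scipy 1.17.1). The planned rule for liver nuclei, 3 liver markers among 10 leading genes, found no cluster. It was replaced, after the data were seen, by at least 3 of 8 liver markers with 20 or more UMIs and 10 times the CPM of other nuclei, which took out 17 nuclei.

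A nucleus was serotonergic with at least 10 Tph2 UMIs. Otherwise it needed at least 3 transmitter UMIs with 75% from glutamate transporter genes (glutamatergic) or from Gad1, Gad2, Slc32a1 and Slc6a5 (glycinergic with at least 2 Slc6a5 UMIs, GABAergic with fewer). Ratios are log2 of CPM with 0.5 UMI added to both sides, with exact intervals conditional on the summed count. Shares have Clopper-Pearson and levels Poisson 95% intervals, which cover counting error only, and the limit for a count of 0 is 3 counts. Thinned shares are exact expectations over all draws. Counts over genes took those with at least 100 UMIs over both libraries. The ratio computation was tested on simulated data.

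Members, lists and rules were chosen with earlier results of these data known. Named genes were the 10 members, the list genes, the 8 genes most like Acan and Plce1, and the 12 highest and 8 lowest in double-positive nuclei among genes with a UMI in at least 50% of the nuclei of the higher side and at most 25% of UMIs from 1 nucleus. Gene models, Y-linked genes, Xist and Tsix, and genes of ribosomal proteins or the mitochondrial genome were not ranked. Some genes that these rules select are not reported here. Gene positions come from GENCODE vM21 and promoters from RefSeq.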

Additional observations from a re-analysis of the deposited data

Results flagged for a closer look

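Some differences took opposite signs in the groups compared, and none of these differences was itself tested. In double-positive over other nuclei, Vcan had a log2 ratio of -1.66 in the SNI with brush library, on 2 UMIs, and 1.08 in the hot water bath library, and Tnr had 0.0219 in the SNI with brush and -0.0722 in the hot water bath library, both within counting error of 0.

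Between the libraries, 4 genes had opposite signs in glycinergic and glutamatergic nuclei. Plce1 had -0.0501 in glycinergic and 2.77 in glutamatergic nuclei, Cgnl1 -0.27 in glycinergic and 1.80 in glutamatergic, Acan -0.46 in glycinergic and 1.71 in glutamatergic, and Vcan -0.72 in glycinergic and 0.28 in glutamatergic nuclei. The glycinergic intervals of all 4 include 0.

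The 17 liver-gene nuclei, which were left out of the neuronal groups, held 28 UMIs of Plce1, 61 of Cgnl1 and 4 of Tnr, each above the limit that a count of 0 allows.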

How the results depend on the processing

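No paired analysis was possible because each treatment has 1 library and the labels give no replicate numbers. There was no replicate to leave out.

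The UMI minimum that defines double-positive nuclei moved most values. With a minimum of 1 the SNI with brush share was 9.29% and the glutamate share of its transmitter UMIs 38.3%. With a minimum of 3 the shares of nuclei were 1.49% in the SNI with brush and 0.237% in the hot water bath library, the glutamate shares 57.1% for SNI with brush and 0% for hot water bath, the hot water bath depth ratio 1.13, and the share with P2rx6 and Cgnl1 100% in both, on a single hot water bath nucleus. Selection after thinning to 9000 UMIs gave shares of 1.18% for SNI with brush and 0.281% for hot water bath, and hot water bath glutamate shares of 24.6%, or 30.9% at 18000 UMIs, an alternative added after the data were seen. A mean over nuclei gave 65.0% there, and nuclei with at most 0.5% mitochondrial UMIs gave 32.0% in the SNI with brush library. Depth ratios ranged from 1.33 to 2.74 in the SNI with brush library and from 1.13 to 1.69 in the hot water bath library over the alternatives run. The cause of these shifts was not tested.

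With at least 20 UMIs per gene, 5308 genes were at least 1.5-fold higher and 1474 lower in the SNI with brush library, and with at least 1 UMI 8998 and 2742, against 3295 and 777 in the counts reported. With no UMI added, an alternative added after the data were seen, 3 members were at least 2-fold higher in hot water bath double-positive nuclei, against 6. Tnr in SNI with brush double-positive nuclei was -0.55 with a minimum of 1 UMI, and -0.44 and -0.39 with selection after thinning to 9000 and 18000 UMIs, against 0.0219. Size factors gave 1368 lower genes, and 2304 higher ones.

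Reversals were Vcan in SNI with brush double-positive nuclei, at 1.21 with a minimum of 1 UMI, and, among glycinergic nuclei only, Acan (-0.46), Vcan (-0.72), Plce1 (-0.0501) and Cgnl1 (-0.27). Keeping all nuclei or called doublets moved none of these results beyond counting error. With 9 and 6 double-positive nuclei, and under 10 UMIs for several genes in them, small differences were not detectable at this depth.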
